A study of Homo sapiens with 15 samples.

Results

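A set of genes tied to the transcription factor NF-kappa B (NF-kB) were followed in HSSYII cells, an established human synovial sarcoma line that carries the SS18-SSX1 fusion. They were chosen by symbol: CSF1, CCL2, CCL5, CXCL1, CXCL2, NFKBIA, TNFAIP3, RELB, NFKB2 and BIRC3, 10 of the 25679 genes in the count tables, with 1 row kept per symbol. RNA was sequenced in 15 libraries, 3 in each of 5 groups. In the first experiment cells received 100 nM dBRD9A, a small molecule that has the BRD9 protein degraded, or DMSO, its vehicle, and both groups were harvested after 6 hr. In the second, cells were infected with a GFP-marked lentivirus that expresses the hairpin shSS18-SSX1-1 or shSS18-SSX1-2, both directed at the fusion, or with shRenilla, a control hairpin, and were harvested 96 hr later. No drug selection followed infection, so these cultures could hold uninfected cells, and all groups are cultures of 1 cell line. The labels do not say that the libraries of a group came from separate cultures, so each p-value measures the spread between libraries, which may be technical.

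NF-kB is a family of dimers built from the Rel proteins RELA, RELB, REL, NFKB1 and NFKB2. In resting cells inhibitors of the IkB family, such as the protein made from NFKBIA, hold the dimers in the cytoplasm. Receptors for TNF, interleukin-1 or microbial products activate the IKK kinases, IkB is destroyed, and the freed dimers bind kappa B sites. The non-canonical branch runs through the kinase MAP3K14, also called NIK, which triggers the processing of the NFKB2 precursor into a partner of RELB. NF-kB also drives its own inhibitors, which makes NFKBIA, TNFAIP3 and NFKB2 common readouts, and it drives cytokines that call in or sustain leukocytes.

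Total counts per library were 18576874 to 27027411. SSX1, the fusion partner that the knockdown should lower, averaged 20.1 CPM (counts per 1000000 counts, on TMM-scaled library sizes) under shSS18-SSX1-1 and 28.7 CPM with shSS18-SSX1-2, against 63.6 CPM with shRenilla (log2 fold change -1.42 over both hairpins, SE 0.0978, edgeR adjusted p = 5.7e-08). BRD9 loss is at the protein level and was not measured by these libraries. One library stood apart. Counts of shRenilla replicate 1 differed from those of the other shRenilla libraries with a chi-square per degree of freedom of 25.6 and 34.6, while the other replicate pairs ranged from 1.32 to 9.32. Knockdown changes of the members and counts per gene list are therefore also given without it.

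The promoters of the members are shown because NF-kB binds kappa B letters and these genes are grouped as its targets. RefSeq promoter windows (GRCh38.p14), from 250 bases before to 50 bases after a start of transcription, were found for 6 of the 10 members: NFKBIA, TNFAIP3, NFKB2 (3 starts), BIRC3, CXCL1 and CXCL2. CSF1, CCL2, CCL5 and RELB were not matched. The 10-base kappa B consensus, searched on both strands, was present in windows of all 6 genes and in 11.3% of all 35116 promoter windows. A shorter 9-letter form, GGNNNTTCC, which overlaps most of those matches, was present in 7 of the 8 windows and in 20.1% of all windows. These matches describe letters and are not evidence that a factor binds. The 250 bases upstream of the start are printed for the 2 feedback inhibitors that were higher in both experiments, at chr14:35404750-35404999 on the minus strand (NFKBIA) and chr6:137867009-137867258 on the plus strand (TNFAIP3), and for 2 chemokines that were almost without reads, at chr4:73869143-73869392 on the plus strand (CXCL1) and chr4:74099196-74099445 on the minus strand (CXCL2). Capitals mark the kappa B consensus on either strand.
NFKBIA: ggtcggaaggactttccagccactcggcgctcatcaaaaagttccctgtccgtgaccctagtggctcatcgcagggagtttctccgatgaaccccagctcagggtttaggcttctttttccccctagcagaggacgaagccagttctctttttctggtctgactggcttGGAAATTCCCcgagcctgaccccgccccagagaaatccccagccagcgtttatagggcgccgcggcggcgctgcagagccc
TNFAIP3: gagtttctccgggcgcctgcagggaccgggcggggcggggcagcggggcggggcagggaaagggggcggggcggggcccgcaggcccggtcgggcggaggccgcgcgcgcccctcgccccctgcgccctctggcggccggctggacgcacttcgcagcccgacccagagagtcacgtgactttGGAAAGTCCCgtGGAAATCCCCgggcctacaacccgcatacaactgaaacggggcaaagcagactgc
CXCL1: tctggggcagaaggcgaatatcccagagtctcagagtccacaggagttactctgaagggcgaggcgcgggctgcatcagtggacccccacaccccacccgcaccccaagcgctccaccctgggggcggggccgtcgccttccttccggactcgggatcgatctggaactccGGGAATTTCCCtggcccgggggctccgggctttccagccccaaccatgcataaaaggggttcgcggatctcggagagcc
CXCL2: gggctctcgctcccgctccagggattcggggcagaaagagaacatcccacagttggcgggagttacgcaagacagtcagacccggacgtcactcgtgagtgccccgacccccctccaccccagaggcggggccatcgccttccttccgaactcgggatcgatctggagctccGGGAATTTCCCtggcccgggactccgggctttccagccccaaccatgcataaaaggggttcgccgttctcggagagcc

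In NFKBIA the consensus match read GGGAATTTCC on the minus strand, beginning 81 bases before the start, and a GGNNNTTCC match lay 242 bases before it. TNFAIP3 held matches to the consensus 67 and 55 bases upstream, GGGACTTTCC and GGGGATTTCC, both on the minus strand. CXCL1 and CXCL2 held the same letters as NFKBIA, GGGAATTTCC, at 79 and 78 bases upstream, and their 250-base stretches were identical at 181 of 257 aligned positions (70.4%). BIRC3 held GGGGATTTCC 199 bases upstream and GGGGAACTCC 135 bases upstream. Of the 3 NFKB2 windows, the first had no match to either motif, the second held matches 107 and 78 bases upstream, and the third held matches 176 and 21 bases upstream. Kappa B letters were thus present both in genes with many reads and in genes with almost none.

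**Figure D1:**
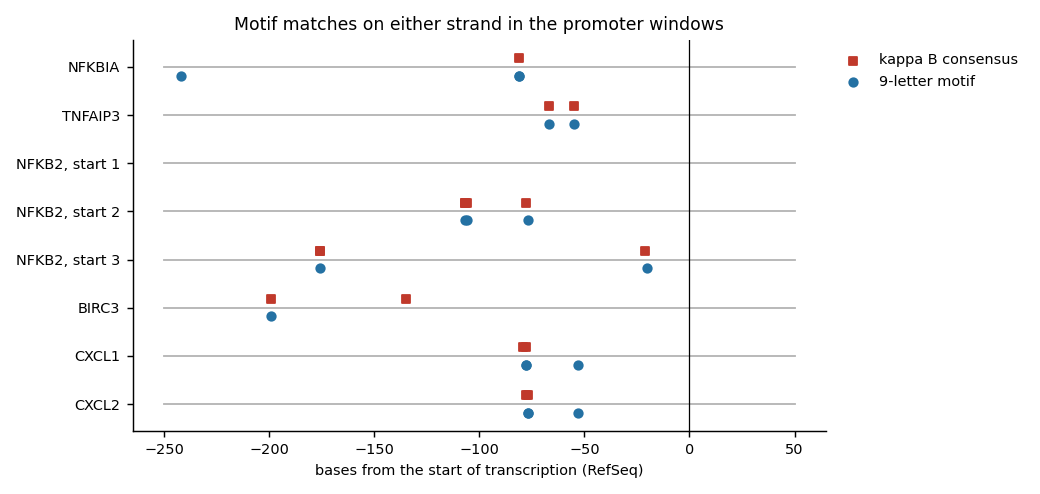
Positions of motif matches in the RefSeq promoter windows of 6 members, in bases from the start of transcription, with the start of each match drawn as a square for the 10-base kappa B consensus and a circle for the 9-letter motif, on either strand. Each window with a match has one between 199 and 21 bases upstream, while the first NFKB2 start has none.

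Knockdown of the fusion was followed by higher counts of every member that could be tested. The largest well-measured rise was that of CSF1, the growth factor of macrophages, at 7.51-fold. The feedback inhibitors NFKBIA and TNFAIP3 rose 2.30-fold and 3.03-fold, and the non-canonical subunits RELB and NFKB2 rose 1.94-fold and 1.90-fold. The leukocyte attractants CCL2 and CCL5 reached 0.589 to 3.31 CPM in the hairpin libraries. CXCL1, CXCL2 and BIRC3 stayed at a few reads and were not tested. Of the 7 members tested, CCL2 and CCL5 had under 10 counts in every shRenilla library and passed the filter on low counts only through the hairpin libraries, so they had to differ. By edgeR's quasi-likelihood test the other 5 of 5 were higher at an adjusted p under 0.05, where 22.5% of all 14268 genes were, and all 5 were more than 1.5-fold higher, where 12.5% of genes were. The same 7 genes were tested without shRenilla replicate 1, and all were again higher.

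CSF1, at chr1:110452864-110473614 on the plus strand (GRCh37), had 90.7, 97.0 and 91.5 CPM under shSS18-SSX1-1 and 86.8, 88.4 and 89.5 CPM with shSS18-SSX1-2, against 12.2, 10.6 and 13.0 CPM with shRenilla. The groups were far apart and the replicates close. The log2 fold change was 2.91 (SE 0.0847, edgeR adjusted p = 1.02e-11), and it was 2.95 without shRenilla replicate 1. CSF1 has 4 transcript rows, of which that of NM_000757 was kept. The rows share reads, and the next one, NM_172211, held 79.9% of the kept row's counts with either hairpin and 81.2% with shRenilla, so the rows moved together.

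NFKBIA, at chr14:35870285-35873955 on the minus strand, encodes the inhibitor that returns NF-kB to the cytoplasm. It had 47.8, 46.6 and 52.5 CPM under shSS18-SSX1-1 and 51.0, 57.1 and 52.0 CPM with shSS18-SSX1-2, against 17.7, 24.7 and 23.9 CPM with shRenilla. Every hairpin library was above every shRenilla library (log2 fold change 1.20, SE 0.103, edgeR adjusted p = 4.76e-07). The lowest control value was that of shRenilla replicate 1, and without it the change was 1.08.

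TNFAIP3, at chr6:138188351-138204451 on the plus strand, encodes A20, an enzyme that edits ubiquitin chains and damps signals to IKK. It had 7.66, 7.19 and 8.66 CPM under shSS18-SSX1-1 and 9.18, 10.7 and 10.0 CPM with shSS18-SSX1-2, against 2.23, 3.45 and 3.05 CPM with shRenilla. Here too the groups did not overlap (log2 fold change 1.60, SE 0.142, edgeR adjusted p = 6.50e-07), and the change was 1.44 without shRenilla replicate 1.

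RELB, at chr19:45504719-45541450 on the plus strand, is the Rel subunit of the non-canonical branch. It had 12.1, 12.4 and 10.7 CPM under shSS18-SSX1-1 and 13.0, 11.2 and 13.0 CPM with shSS18-SSX1-2, against 7.25, 4.75 and 6.34 CPM with shRenilla. The log2 fold change was 0.96 (SE 0.129, edgeR adjusted p = 3.84e-05), with no overlap between hairpin and control libraries, and it was 1.12 without shRenilla replicate 1. NFKB2, at chr10:104153867-104162281 on the plus strand, encodes the precursor that becomes the partner of RELB. It had 35.1, 34.1 and 32.1 CPM under shSS18-SSX1-1 and 42.4, 39.9 and 41.3 CPM with shSS18-SSX1-2, against 21.0, 15.9 and 21.2 CPM with shRenilla. It was higher in all 6 hairpin libraries (log2 fold change 0.93, SE 0.0958, edgeR adjusted p = 2.97e-06), and the change was 1.01 without shRenilla replicate 1.

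The chemokines were far sparser. CCL5 and CCL2 passed the filter on low counts only through the hairpin libraries, so they had to differ. Their fitted changes and adjusted p-values describe that difference and are not evidence for it. CCL5, at chr17:34198495-34207797 on the minus strand, attracts T cells and monocytes. It had 34, 23 and 23 counts with shSS18-SSX1-1 and 61, 84 and 55 counts with shSS18-SSX1-2, against 2, 4 and 2 counts with shRenilla. The summed counts, scaled to library size, were 18.4-fold higher with the hairpins (95% interval 9.23 to 43.1, exact Clopper-Pearson, counting error only), and the fitted log2 fold change was 3.98 (SE 0.326, edgeR adjusted p = 2.92e-07), or 3.73 without shRenilla replicate 1. CCL2, at chr17:32582293-32584227 on the plus strand, is the main attractant of monocytes. It had 13, 11 and 30 counts with shSS18-SSX1-1 and 27, 39 and 29 counts with shSS18-SSX1-2, against 0, 0 and 3 counts with shRenilla. That is 149 counts in 6 hairpin libraries against 3 in 3 control libraries, a ratio of 26.2 (interval 8.78 to 128). The fitted log2 fold change of CCL2 was 4.46 (SE 0.605, edgeR adjusted p = 3.89e-05). It rests on which control library holds the 3 counts, and was 3.85 without shRenilla replicate 1 and 7.61 without shRenilla replicate 3.

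The remaining members gave almost no reads. CXCL1 and CXCL2, neighbouring neutrophil attractants at chr4:74735110-74737025 on the plus strand and chr4:74962757-74964913 on the minus strand, summed to 5 counts each over all 15 libraries. They are close paralogs, and reads that fit both can be lost in counting. Both were at 0 in the dBRD9A and DMSO libraries. A 0 in a single library allows an expected count of up to 3, and several libraries at 0 allow less. BIRC3, at chr11:102188215-102210134 on the plus strand, encodes the ubiquitin ligase cIAP2 that acts at TNF receptors. It had 3, 2 and 4 counts with shSS18-SSX1-1 and 3, 3 and 3 with shSS18-SSX1-2, against 0, 2 and 1 with shRenilla, a ratio of 3.16 whose interval (0.923 to 16.8) spans 1. A change of these 3 genes was not detectable at this depth.

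**Figure D2:**
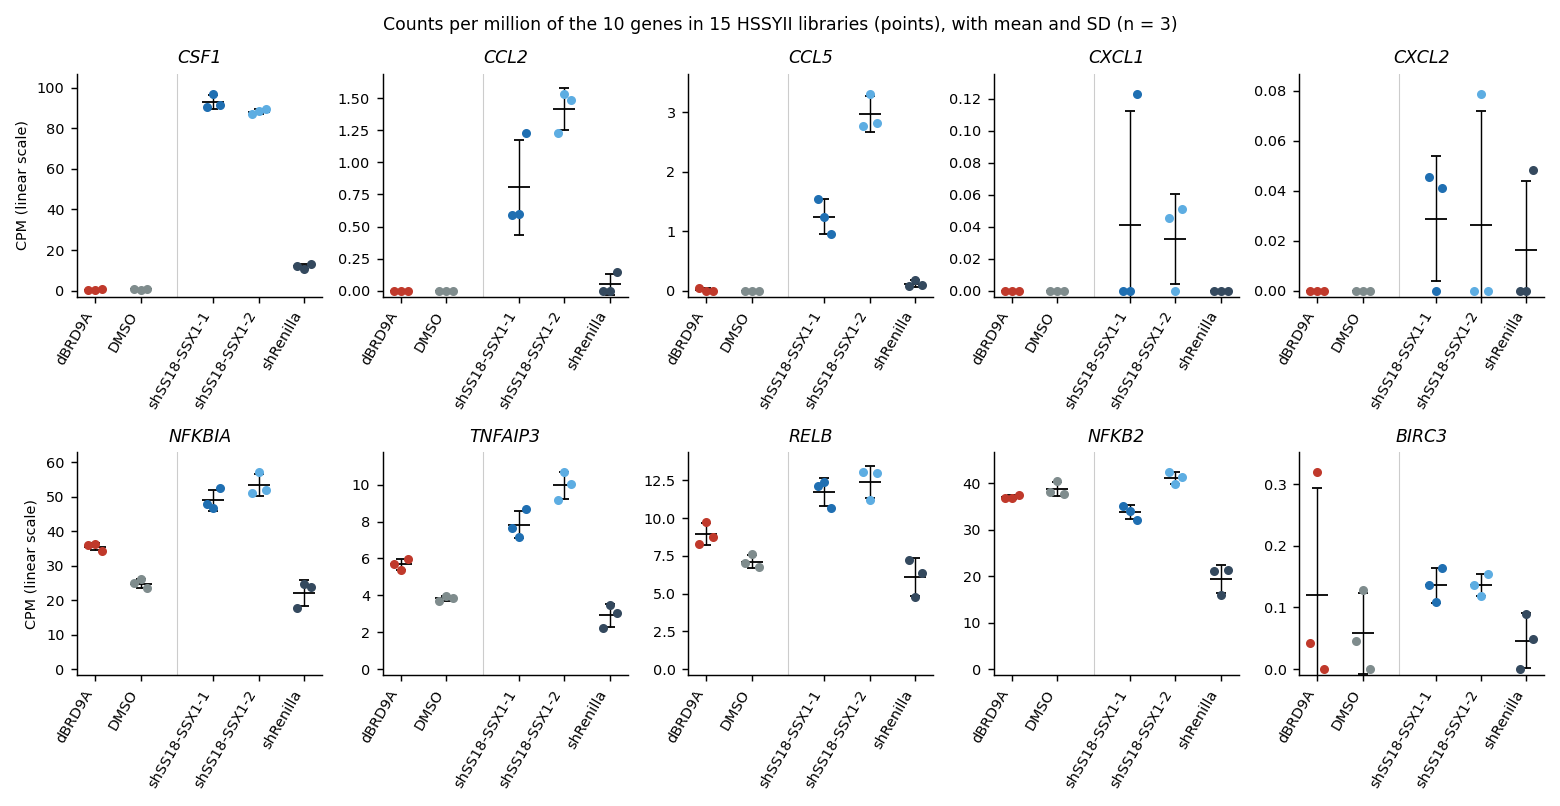
CPM of each member on a linear axis, by group, with 1 point per library and bars for the mean and SD (n = 3), dBRD9A left of DMSO and the SS18-SSX1 hairpins left of shRenilla. CSF1 sits between 86.8 and 97.0 CPM with the hairpins, above 10.6 to 13.0 CPM with shRenilla, and under 1 CPM in all 6 libraries of the dBRD9A experiment.

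Degradation of BRD9 for 6 hr was followed by smaller changes, and not in all members. NFKBIA was 1.44-fold higher, TNFAIP3 1.48-fold and RELB 1.26-fold, while NFKB2 and CSF1 did not pass the test. After the filter on low counts 5 members were tested, and of these 3 were higher and 0 lower, where 17.7% of all 13651 genes were higher and 18.2% lower. DESeq2 gave the same 3 and 0, as did an unadjusted p under 0.05 in edgeR. None of the 3 exceeded 1.5-fold.

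NFKBIA had 36.1, 36.2 and 34.3 CPM with dBRD9A, against 24.9, 26.0 and 23.5 CPM with DMSO (log2 fold change 0.52, SE 0.0547, edgeR adjusted p = 6.83e-09). The dBRD9A libraries were tightly grouped and all above the DMSO libraries. TNFAIP3 had 5.68, 5.39 and 5.96 CPM with dBRD9A, against 3.68, 3.98 and 3.85 CPM with DMSO (log2 fold change 0.57, SE 0.115, edgeR adjusted p = 0.000224), again without overlap. RELB had 8.29, 9.75 and 8.75 CPM with dBRD9A, against 7.01, 7.62 and 6.73 CPM with DMSO (log2 fold change 0.33, SE 0.0944, edgeR adjusted p = 0.00616). Its call was lost without dBRD9A replicate 2 (change 0.26, adjusted p = 0.0683), when all 15 libraries were fitted together (adjusted p = 0.119) and with the dBRD9A scale lowered by 0.25 on the log2 scale (adjusted p = 0.446).

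NFKB2 had 36.9, 36.8 and 37.6 CPM with dBRD9A, against 38.2, 40.5 and 37.7 CPM with DMSO (log2 fold change -0.06, SE 0.0492, edgeR adjusted p = 0.366). Every dBRD9A library lay below every DMSO library, but the difference was small and did not pass the test. CSF1 had only 9, 12 and 14 counts with dBRD9A, against 17, 12 and 18 counts with DMSO (log2 fold change -0.53, SE 0.326, edgeR adjusted p = 0.218). CCL2 was at 0 in all 6 libraries, and CCL5 had 1 count in a dBRD9A library and 0 in the others. BIRC3 had 1, 8 and 0 counts with dBRD9A, against 1, 3 and 0 with DMSO, a ratio of 2.08 with an interval of 0.581 to 9.25.

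The effects of both experiments were then set against each other in 1 fit of all 15 libraries. All 5 members measured in both had a lower effect of dBRD9A than of knockdown, where 19.0% of 14559 genes did and 17.5% had a higher one. The difference in log2 fold change was -3.46 for CSF1 (SE 0.293, edgeR adjusted p = 5.26e-08) and -1.01 for NFKB2 (SE 0.114, adjusted p = 1.63e-06), the members that did not pass the test after dBRD9A. It was -1.05 for TNFAIP3 (SE 0.185, adjusted p = 0.000199), -0.70 for NFKBIA (SE 0.13, adjusted p = 0.000351) and -0.64 for RELB (SE 0.171, adjusted p = 0.00645). The experiments differ in time (6 hr and 96 hr), in delivery and in control, and these cannot be told apart from the difference between BRD9 loss and fusion loss.

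**Figure D3:**
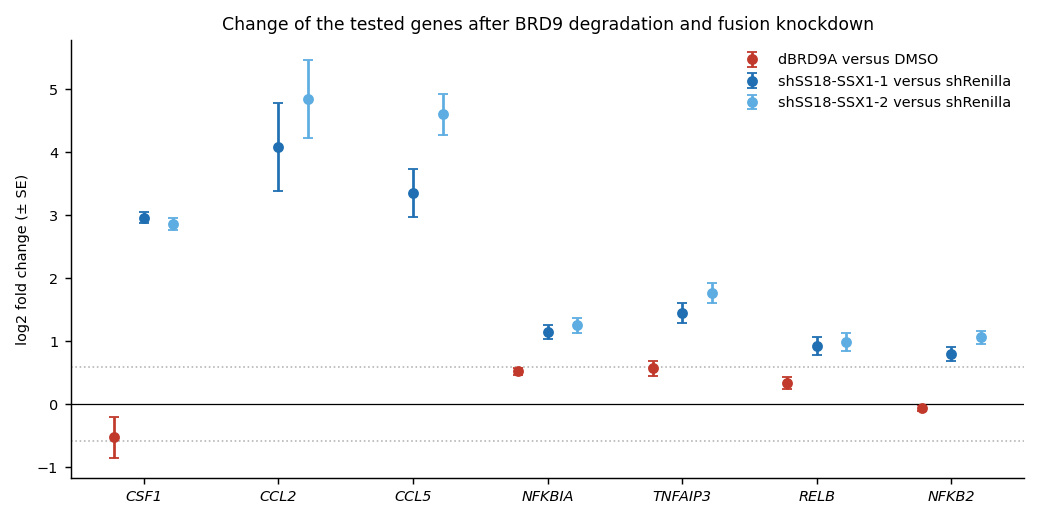
Log2 fold change and SE (edgeR) of the 7 members tested in at least 1 experiment, for dBRD9A versus DMSO and for each hairpin versus shRenilla, with dotted lines at 1.5-fold. The hairpin values lie between 0.79 and 4.84, and the dBRD9A values between -0.53 and 0.57, with no dBRD9A point for CCL2 and CCL5, which were not tested there.

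The control levels themselves differed between the experiments. CSF1 averaged 11.9 ± 1.24 CPM with shRenilla and 0.714 ± 0.181 CPM with DMSO (SD, n = 3 each), a ratio of 16.7. NFKB2 went the other way, with 19.4 ± 3.01 CPM with shRenilla and 38.8 ± 1.47 CPM with DMSO. NFKBIA, TNFAIP3 and RELB lay closer together, with ratios of shRenilla to DMSO of 0.89, 0.758 and 0.859. The order of levels differed by gene. NFKBIA averaged 53.4 ± 3.28 CPM with shSS18-SSX1-2, 49.0 ± 3.09 with shSS18-SSX1-1, 35.6 ± 1.09 with dBRD9A, 24.8 ± 1.24 with DMSO and 22.1 ± 3.79 with shRenilla, and libraries of the first pair and of the last pair in that order overlapped. TNFAIP3 and RELB followed the same order of group means, with no overlap between neighbours for TNFAIP3. NFKB2 was highest with shSS18-SSX1-2 (41.2 ± 1.29 CPM), whose libraries overlapped those of DMSO, while shSS18-SSX1-1 (33.8 ± 1.53 CPM) lay below dBRD9A (37.1 ± 0.424 CPM). The rise of NFKB2 on knockdown was thus measured from a control at 0.5 of the DMSO level.

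Between the hairpins, 1 member differed by the test. CCL5 averaged 2.97 ± 0.296 CPM under shSS18-SSX1-2 and 1.24 ± 0.298 CPM under shSS18-SSX1-1 (log2 fold change 1.24, SE 0.209, edgeR adjusted p = 0.0399), where 0.147% of all genes were called. That call was lost when any of the 6 hairpin libraries was left out (adjusted p of 0.0687 to 0.201) and when shRenilla replicate 3 was (0.0609). With the replicate numbers as a block its adjusted p was 0.0795. The log2 differences of the other tested members were -0.10 for CSF1 (SE 0.08), 0.10 for NFKBIA (SE 0.11), 0.06 for RELB (SE 0.138), 0.27 for NFKB2 (SE 0.104), 0.32 for TNFAIP3 (SE 0.139) and 0.76 for CCL2 (SE 0.346), none of them past the threshold. Both hairpins are read against the same shRenilla libraries, so their separate changes are not independent. The changes with shSS18-SSX1-1 ran between 0.79 (NFKB2) and 4.09 (CCL2), and those with shSS18-SSX1-2 between 0.99 (RELB) and 4.84 (CCL2).

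The rest of the pathway was read from gene lists. Among the other Rel and IkB proteins, 1 of 8 tested was higher after knockdown and 0 lower (2 and 0 by DESeq2, at an unadjusted p under 0.05, and without shRenilla replicate 1), where 22.5% of all genes were higher and 22.1% lower. That gene was NFKBIZ, an atypical nuclear IkB, which also passed the filter only through the hairpin libraries. It had 154 counts with the hairpins and 9 with shRenilla (ratio 9.02, interval 4.63 to 20.1), or 0.871 CPM under shSS18-SSX1-1 and 1.48 CPM under shSS18-SSX1-2, against 0.137 CPM under shRenilla. The Rel subunits of the canonical branch changed by 0.05 (RELA, SE 0.0735), 0.02 (NFKB1, SE 0.0638) and 0.23 (REL, SE 0.152) on the log2 scale and did not pass the test. After dBRD9A, where 17.7% of all genes were higher and 18.2% lower, 2 of 7 were higher and 1 lower (2 and 0 by DESeq2). These were NFKBID (0.43, SE 0.0845), RELA (0.13, SE 0.0387) and NFKB1 (-0.11, SE 0.0394), and REL was at 0.07 (SE 0.0559).

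Of 22 genes of the IKK complex and its adaptors, 4 were higher and 0 lower after knockdown (4 and 1 by DESeq2, 7 and 2 at an unadjusted p under 0.05), against the same 22.5% and 22.1% of all genes. Without shRenilla replicate 1 these counts were 6 and 1. The list had a median log2 fold change of 0.08 where that of all genes was -0.01. MAP3K14, the NIK kinase, was the furthest, with 33.7 CPM under shSS18-SSX1-1 and 35.0 CPM under shSS18-SSX1-2, against 16.8 CPM under shRenilla (log2 fold change 1.01, SE 0.111, edgeR adjusted p = 5.02e-06). MAP3K14 averaged 39.2 CPM with DMSO, so its rise, like that of NFKB2, was measured from a control below the DMSO level. The adaptors TRADD, MYD88 and TRAF5 were higher by 0.42, 0.41 and 0.39. TRADD too was lower with shRenilla (6.65 CPM) than with DMSO (8.28 CPM). MYD88 (34.8 and 32.1 CPM) and TRAF5 (90.2 and 48.0 CPM) were not. After dBRD9A, 1 was higher and 6 lower (1 and 5 by DESeq2), beside 17.7% and 18.2% of all genes. RIPK1, the kinase scaffold at TNF receptors, was higher by 0.42 (SE 0.0501), while the IKK subunit IKBKB fell by 0.34 (SE 0.0585), IKBKE by 0.32 (SE 0.0732) and the kinase IRAK4 by 0.27 (SE 0.0583). MAP3K14 was at -0.22 (SE 0.0553).

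Of 9 other genes listed as feedback inhibitors, 4 were higher and 0 lower after knockdown (the same by DESeq2 and at an unadjusted p under 0.05, and 5 and 0 without shRenilla replicate 1), beside 22.5% and 22.1% of all genes. They were TNFAIP8 (0.97, SE 0.106), TAX1BP1 (0.58, SE 0.0872), the deubiquitinase CYLD (0.37, SE 0.0945) and N4BP1 (0.24, SE 0.0917). TNFAIP8 is induced by TNF but is not an established inhibitor of the pathway. The shRenilla level was below that of DMSO for TAX1BP1 (78.4 and 114 CPM) and CYLD (30.6 and 50.7 CPM). With shSS18-SSX1-1 and shSS18-SSX1-2, TAX1BP1 averaged 116 and 121 CPM and CYLD 39.5 and 40.2 CPM. For TNFAIP8 (14.8 and 15.3 CPM) and N4BP1 (51.8 and 55.0 CPM) shRenilla and DMSO lay closer together. After dBRD9A 1 was higher and 2 lower (1 and 0 by DESeq2), beside 17.7% and 18.2% of all genes. CYLD was higher by 0.22 (SE 0.0422), with TNIP2 at -0.13 (SE 0.0437) and N4BP1 at -0.12 (SE 0.0453).

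The genes upstream of the pathway included receptors that were almost without reads under shRenilla. Of 26 ligands and receptors 11 could be tested after knockdown. Of these 6 were higher and 1 lower, beside 22.5% and 22.1% of all genes, or 6 and 2 of 12 without shRenilla replicate 1. Of the 6, IL1R1, TNFRSF1B and TLR3 passed the filter only through the hairpin libraries, and of the other 8 tested 3 were higher. IL1R1, the signalling receptor for interleukin-1, had 635 counts over the hairpin libraries against 1 over the shRenilla libraries, a ratio of 335 with an interval of 59.8 to 13238. TNFRSF1B, a TNF receptor, had 234 counts against 3 with shRenilla (ratio 41.1, interval 13.9 to 201). TNFRSF1A, the main TNF receptor, was higher by 1.18 (SE 0.0829) and TNFRSF12A, the receptor for TWEAK that feeds the non-canonical branch, by 1.35 (SE 0.135). After dBRD9A 4 of 8 tested were higher and 2 lower (3 and 1 by DESeq2), beside 17.7% and 18.2% of all genes. TNFRSF1A was higher by 0.45 (SE 0.0518), TNFRSF12A by 0.37 (SE 0.0661) and TNFRSF11A, the receptor RANK, by 0.68 (SE 0.142), while TNFSF12, the ligand TWEAK, fell by 0.45 (SE 0.137). TNFRSF11A was at -0.62 (SE 0.144) after knockdown. The ligands TNF, LTA and LTB were listed at 0 in every library. BAG6 and GNL1, genes of the same stretch of chromosome 6 that nearly every cell uses, were chosen for this check after the values were seen and also stayed under 3 counts in every library, so a 0 there does not show that a gene was silent.

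Of 26 other NF-kB target genes 15 could be tested after knockdown. Of these 10 were higher and 1 lower, beside 22.5% and 22.1% of all genes, or 11 and 2 of 16 without shRenilla replicate 1. Of the 10, VCAM1, IER3 and CD44 passed the filter only through the hairpin libraries, and of the other 12 tested 7 were higher. PLAU, the protease urokinase, had 44 CPM under shSS18-SSX1-1 and 56.7 CPM under shSS18-SSX1-2, against 1.24 CPM under shRenilla (log2 fold change 5.27, SE 0.158, edgeR adjusted p = 1.41e-11). CD44, an adhesion receptor, had 388 counts with shSS18-SSX1-1 and 888 with shSS18-SSX1-2, against 3 with shRenilla. Over both hairpins that is 1276 counts, a ratio of 224 (interval 76.5 to 1088, counting error only). GADD45B, a stress-response gene, was higher by 1.65 (SE 0.0841), and IER3, which lies in the same stretch of chromosome 6 as TNF and is counted with the same doubt, by 2.27 (SE 0.287). After dBRD9A 5 of 11 were higher and 4 lower (4 and 4 by DESeq2), beside 17.7% and 18.2% of all genes, with a median of 0.02. IRF1, a transcription factor of the interferon response, was higher by 0.61 (SE 0.0842), PLK3 by 0.41 (SE 0.121) and GADD45B by 0.36 (SE 0.0557), while the cytokine LIF fell by 0.46 (SE 0.0546).

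**Figure D4:**
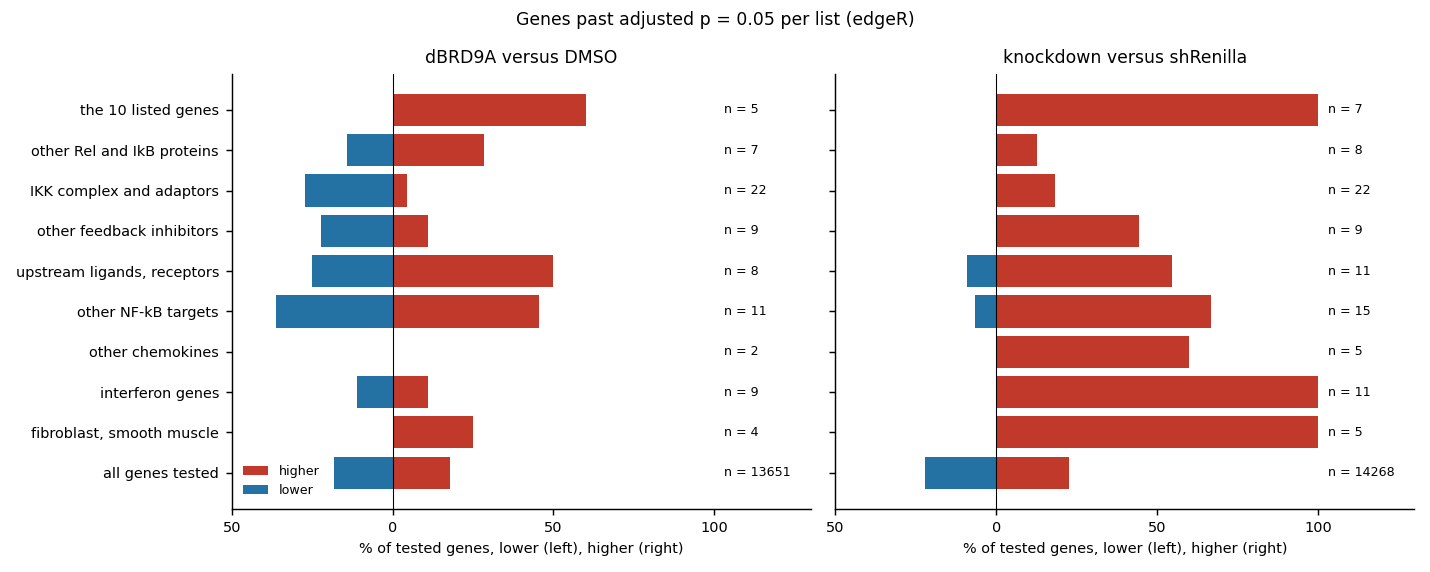
Share of the tested genes of each list that passed an adjusted p of 0.05 in edgeR, higher to the right and lower to the left, with the number tested (n), for dBRD9A versus DMSO and for knockdown versus shRenilla. The bars for knockdown include genes that passed the filter only through the hairpin libraries, 2 of the 7 members among them. The other 5 members were all higher, where 22.5% of all genes were, and 3 of 5 after dBRD9A, where 17.7% were.

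Other chemokines were sparse. Of 20 other chemokines, 5 could be tested after knockdown and 3 were higher, also without shRenilla replicate 1, beside 22.5% of all genes. All 3 passed the filter only through the hairpin libraries, and CX3CL1 alone averaged at least 1 CPM in a group (253 counts with the hairpins and 3 with shRenilla, ratio 44.4, interval 15 to 217). After dBRD9A neither of 2 tested passed, by edgeR, by DESeq2 or at an unadjusted p under 0.05.

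Gene groups used as markers of other cell states moved with the knockdown, though not every gene in them did. The summed level of 8 fibroblast and smooth muscle markers was 1204 to 1215 CPM under shSS18-SSX1-1 and 1345 to 1497 CPM with shSS18-SSX1-2, against 22.4 to 28.6 CPM with shRenilla. After knockdown 5 of 5 tested were higher, where 22.5% of all genes were, and again 5 of 5 without shRenilla replicate 1. Of these, PDGFRB and ACTA2 passed the filter only through the hairpin libraries. FAP, DCN and LUM did not follow and averaged at most 0.103 CPM with either hairpin. In the first experiment the sum was 25.1 to 27.8 CPM with dBRD9A and 23.6 to 25.7 CPM with DMSO. FAP averaged 5.37 CPM with dBRD9A and 6.00 CPM with DMSO, but 0 CPM with shRenilla. Of 11 tested interferon genes 11 were higher after knockdown, where 22.5% of all genes were, and 12 of 12 without shRenilla replicate 1. Of the 11, MX1, OAS1, OAS2 and IFIH1 passed the filter only through the hairpin libraries, and the other 7 of 7 were higher. The summed level of all 14 was 267 to 327 CPM under shSS18-SSX1-1 and 324 to 508 CPM with shSS18-SSX1-2, against 95.9 to 108 CPM with shRenilla. OAS2 had 963 counts with the hairpins and 7 with shRenilla (ratio 72.5, interval 35.1 to 181), IFIH1 491 and 6 (ratio 43.1, interval 19.7 to 118), MX1 1596 and 23 (ratio 36.6, interval 24.3 to 57.9) and OAS1 755 and 13 (ratio 30.6, interval 17.8 to 57.7). After dBRD9A 1 of 9 was higher and 1 lower, against none by DESeq2, beside 17.7% and 18.2% of all genes by edgeR. The part of these shifts in the rise of the members was not tested.

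The members that call in leukocytes were read in cells with few leukocyte transcripts. The 9 leukocyte and macrophage markers summed to 3.83 to 4.63 CPM with dBRD9A, 4.09 to 4.67 CPM with DMSO, 5.94 to 6.54 CPM with shSS18-SSX1-1, 6.11 to 7.13 CPM with shSS18-SSX1-2 and 3.29 to 5.62 CPM with shRenilla. Most of that was CD68, which other cells also express. AIF1 was at 0 in every library, but it lies in the same stretch of chromosome 6 as TNF, so its 0 carries the same doubt. The 6 endothelial markers summed to 2.75 to 4.16 CPM under shSS18-SSX1-1 and 5.16 to 7.80 CPM with shSS18-SSX1-2, against 3.81 to 6.72 CPM with shRenilla, and CDH5 and KDR were at 0 in every library. That sum was mostly CLDN5, the 1 marker called lower (log2 fold change -0.73, SE 0.225), a call lost without shRenilla replicate 1. TEK went the other way, with 53 counts under shSS18-SSX1-1 and 96 under shSS18-SSX1-2, against 0 under shRenilla, as did VWF with 12 and 11 counts against 0. Markers of synovial sarcoma, led by TLE1 and TWIST1, were present throughout. Their sum was 422 to 428 CPM and 450 to 464 CPM with the hairpins against 535 to 555 CPM with shRenilla. It includes SS18 and SSX1, the genes joined in the targeted fusion, so its fall is partly the knockdown itself. Means under shRenilla, shSS18-SSX1-1 and shSS18-SSX1-2 were 171, 111 and 124 CPM for SS18 and 63.6, 20.1 and 28.7 CPM for SSX1. For TLE1 they were 180, 183 and 195 CPM, in the same order. TWIST1 had 108, 96.0 and 95.6 CPM, and BCL2 had 21.57, 13.15 and 14.89 CPM. In the first experiment the sum was 755 to 793 CPM with dBRD9A and 775 to 816 CPM with DMSO. TWIST1 averaged 388 CPM with DMSO, so it was far lower already with shRenilla. With DMSO, TLE1, SS18, SSX1 and BCL2 averaged 188.5, 147.3, 49.4 and 23.46 CPM. A loss of sarcoma cells was not tested. Fewer cells of a type and less RNA per cell cannot be told apart in these bulk libraries.

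The members did not all move as 1 block over the 15 libraries. On the log2(CPM + 1) scale NFKBIA and TNFAIP3 had a Pearson r of 0.987, and each was the other's nearest gene among 12975 genes that averaged at least 1 CPM. The next nearest to NFKBIA were HERPUD1, a gene of the endoplasmic reticulum stress response (0.980), and MIR22HG, the host transcript of a microRNA (0.977). NFKB2 was nearest to FAM65C (0.978), then to MAP3K14 (0.970), the kinase that acts on its protein, and to LOC102724050 (0.968). CSF1 was nearest to LAMB1 (0.997) and SPARC (0.996), genes of the extracellular matrix, and to TEAD3 (0.996). CSF1 had an r of 0.650 with NFKBIA and -0.038 with NFKB2. These values describe 15 libraries in 5 groups that share experiment, time and control, so each r mixes differences between groups with those within them.

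**Figure D5:**
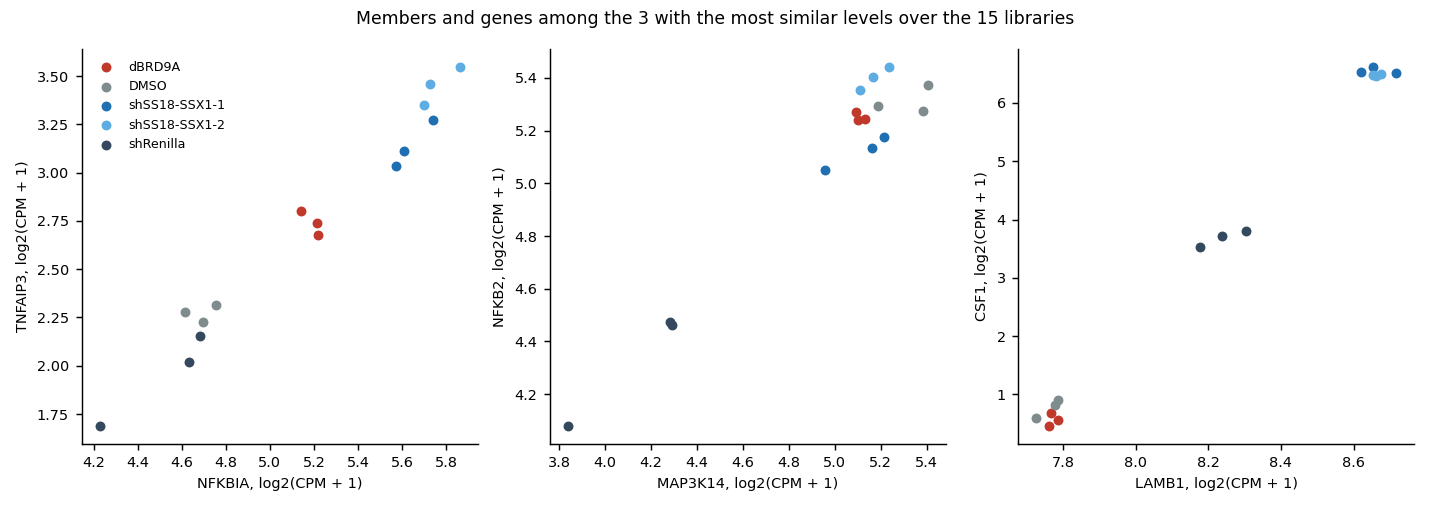
Log2(CPM + 1) of 3 gene pairs in the 15 libraries, coloured by group: NFKBIA with TNFAIP3, MAP3K14 with NFKB2, and LAMB1 with CSF1. NFKBIA and TNFAIP3 (r = 0.987) order the groups alike from shRenilla up to the hairpins, whereas NFKB2 and MAP3K14 (r = 0.970) set only shRenilla apart, and CSF1 and LAMB1 (r = 0.997) form 3 clusters, with dBRD9A and DMSO together at the low end.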

How the data were processed

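HSSYII RNA libraries, 15 in 5 groups named by the labels, were analysed from 15 count tables. Reads had been mapped to hg19 with STAR by the authors and, per the submitters' processing notes, counted with featureCounts. The authors deposited raw counts per transcript. Tool versions and the strand setting were not given in the sources used, and antisense partners cannot be told apart. The study added spike-in RNA, but the tables hold 0 spike-in rows, and a shift shared by all genes would not be seen. In the table of dBRD9A replicate 2, 4535 of 48104 deposited rows have the symbol broken by a space, so this column is classed as other and its last word was read as the count. Gene symbols turned into dates in 80 rows were restored, except for 2 rows, which were left out. For a gene with several transcript rows, the row with the highest sum was kept.

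Counts were tested with edgeR 4.0.16 (R 4.3.3; TMM scaling, robust quasi-likelihood test, filterByExpr with a minimum count of 10, Benjamini-Hochberg adjustment over all genes tested, threshold 0.05), within each experiment, with both hairpins averaged for the knockdown, and over all 15 libraries for the difference of effects. Each SE was derived as the absolute log2 fold change over the root of the F statistic. Levels in CPM use TMM sizes over all 15 libraries. The steps were tested on simulated data. These gave every gene the same spread beyond counting error and held no library that stood apart, as shRenilla replicate 1 did. Members and gene lists were chosen with earlier results of these data known. The text names all members, the genes RELA, NFKB1 and REL, and up to 4 genes per list and comparison with the largest log2 fold change among those past the threshold with a group mean of at least 1 CPM, in places with the value of such a gene in the other experiment beside it. Gene locations are from GENCODE mapped to GRCh37, promoters from RefSeq. Alternatives were DESeq2 1.42.0, other scalings and filters, summed rows, a fit of all libraries, a replicate block, a fold over 1.5 and leaving out each library.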

Additional observations from a re-analysis of the deposited data

Results flagged for a closer look

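In 6 values an effect differed between groups, by a test of the difference itself. In 5 of them the effect of dBRD9A over DMSO was lower than that of knockdown over shRenilla, with differences in log2 fold change of -3.46 for CSF1, -1.05 for TNFAIP3, -1.01 for NFKB2, -0.699 for NFKBIA and -0.644 for RELB (edgeR adjusted p of 5.26e-08 to 0.00645). Each kept its direction and its call under all 21 alternatives. For NFKBIA, TNFAIP3 and RELB both effects pointed up, and for CSF1 and NFKB2 the dBRD9A effect did not pass its own test. The sixth was CCL5, higher by 1.24 on the log2 scale with shSS18-SSX1-2 than with shSS18-SSX1-1 (edgeR adjusted p = 0.0399), a call that 9 of 16 alternatives lost. Groups of 3 libraries are too small for a check of single outlying values.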

How the results depend on the processing

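All 7 knockdown calls of the members kept their direction and their side of the threshold under 16 alternatives each. Only 5 of them were open to test, since CCL2 and CCL5 passed the filter only through the hairpin libraries and had to differ. NFKBIA and TNFAIP3 after dBRD9A kept their calls under 15 alternatives. After dBRD9A, RELB lost its call when all 15 libraries were fitted together (0.33, adjusted p = 0.119) and without dBRD9A replicate 2 (0.26). With the dBRD9A scale lowered by 0.25 on the log2 scale, as a shift shared by all genes would do, RELB was at 0.08 (adjusted p = 0.446), and CSF1 (-0.77) and NFKB2 (-0.31) passed the test, so that 2 members were lower. With the scale raised by 0.25, NFKB2 was higher by 0.19 (adjusted p = 0.000977). Genes called after dBRD9A numbered 4906, against 1500 when all 15 libraries were fitted together, 9545 with the scale lowered and 9991 with it raised. With a fold over 1.5 as a further condition, 0 of the 3 members higher after dBRD9A remained.

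Between the hairpins, 21 genes were called, against 32 with DESeq2 size factors in edgeR, 32 with total counts, 162 by DESeq2, 123 with no filter, 12 with rows summed per gene, 246 in a fit of all 15 libraries, and 5 to 112 when 1 library was left out. The 1 member called, CCL5, became 0 with rows summed per gene, and 0 to 1 when 1 library was left out. Deviations of same-numbered libraries from their group means correlated with r of -0.0873 to 0.0068 (dBRD9A and DMSO) and -0.515 to 0.414 (hairpin experiment). Deviations from a mean of so few libraries depend on each other, so these values cannot decide whether libraries with the same number were paired. With a replicate block 13 genes and 0 members were called between the hairpins. The members called stayed at 3 after dBRD9A, 7 after knockdown (CCL2 and CCL5 among them) and 5 for the difference of effects. The causes of these changes were not tested. Depth limits CXCL1, CXCL2 and BIRC3 in all groups, and CCL2 and CCL5 at 6 hr, where a change of a few counts could not be seen.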
